A study of Homo sapiens with 8 samples.

Results

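Pomalidomide and GNE-781 were set directly against each other by open chromatin in JJN3 and KMS11, established cell lines from the plasma cell cancer multiple myeloma. The contrast took the 2 libraries from cells given pomalidomide at 200 nM, 1 from each line, and the 2 from cells given GNE-781 at 40 nM, with the line as a block. These are 4 of the 8 libraries of the series, and no DMSO library has any weight in the contrast fitted to all 8. The other 4 libraries come from cells given DMSO, the solvent, or pomalidomide and GNE-781 at the same doses, and every exposure lasted 48 h. ATAC-seq reads accessibility from where a transposase can cut the DNA and add adapters. Each line and drug had 1 library, and no source used here states separate cultures. A p-value therefore weighs a difference against how far the 2 lines disagree about the 4 treatments, which may be technical. This spread is estimated mostly from all peaks together, with 3 residual degrees of freedom for a peak and 62.8 prior ones. A peak can thus be called where the 2 lines differ. Cells overexpressing BATF or eGFP, which the design also names, were not analysed here.

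Pomalidomide binds cereblon, the substrate receptor of a ubiquitin ligase that holds DDB1 and CUL4, and the drug-bound ligase marks the lymphoid transcription factors IKZF1 and IKZF3 for degradation. GNE-781 occupies the bromodomains of the related acetyltransferases EP300 and CREBBP, which acetylate histones at enhancers and promoters. Plasma cells depend on IRF4, PRDM1 and XBP1, and in myeloma cells IKZF1 and IKZF3 sustain IRF4 and MYC. The contrast therefore asks where 1 drug leaves chromatin more accessible than the other, and not how far either drug departs from solvent.

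The pomalidomide libraries were deeper than the GNE-781 libraries in both lines. In JJN3 they held 3218581 and 1582277 counts in peaks, a ratio of 2.03, and in KMS11 4586400 and 2981408, a ratio of 1.54. Promoter peaks took 50% and 48.8% of the counts in the JJN3 pair and 48.4% and 50.9% in the KMS11 pair. Levels are given below as CPM, the counts of a peak scaled to library size by the trimmed mean of M-values (TMM). Calls are peaks whose p in edgeR's quasi-likelihood test, adjusted by Benjamini-Hochberg over all 62234 peaks tested, was under 0.05. Differences are log2 of pomalidomide over GNE-781 ± SE. Of 10 defining plasma cell genes, 9 had a peak, and TNFRSF17 was the exception. The summed level over their peaks was 1279 CPM in JJN3 and 737.7 in KMS11 under pomalidomide, and 1128 and 670.1 under GNE-781. POU2AF1 alone gave 755 and 144 under pomalidomide and 659 and 120 under GNE-781. CD38 went the other way, with 28.7 and 37.7 against 43 and 53.7. The fitted difference over all peaks of a gene was above 0 for 5 of the 9, and 0 were called.

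Chromatin was more accessible under pomalidomide than under GNE-781 at 900 peaks (1.45% of those tested) and less accessible at 93 (0.149%). Thus 90.6% of the calls were on the pomalidomide side. At an unadjusted p under 0.05 in the same test, 5002 peaks were higher and 2306 lower, a less uneven split. The median size of the difference was 1.43 on the log2 scale at the higher peaks and 1.35 at the lower ones. At least a 2-fold difference was seen at 757 of the higher and 75 of the lower peaks. The lines had the same sign at 871 of the 900 higher peaks and at all 93 lower peaks, whereas 54.6% of all tested peaks had it. The median log2 ratio at the higher peaks was 1.02 in JJN3 and 1.48 in KMS11, and over all tested peaks it was 0.04 and -0.01. Both pomalidomide libraries lay above both GNE-781 libraries at 643 of the higher peaks, against 10.2% of all tested peaks. They lay below both at 70 of the lower peaks, against 9.2% of all tested peaks. The calls were made from these same libraries, so shared signs and separate groups largely follow from the selection. They are no independent replication. A lower count at a peak can mean fewer cells with the site open or less opening per cell, and bulk libraries cannot tell these apart.

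**Figure D1:**
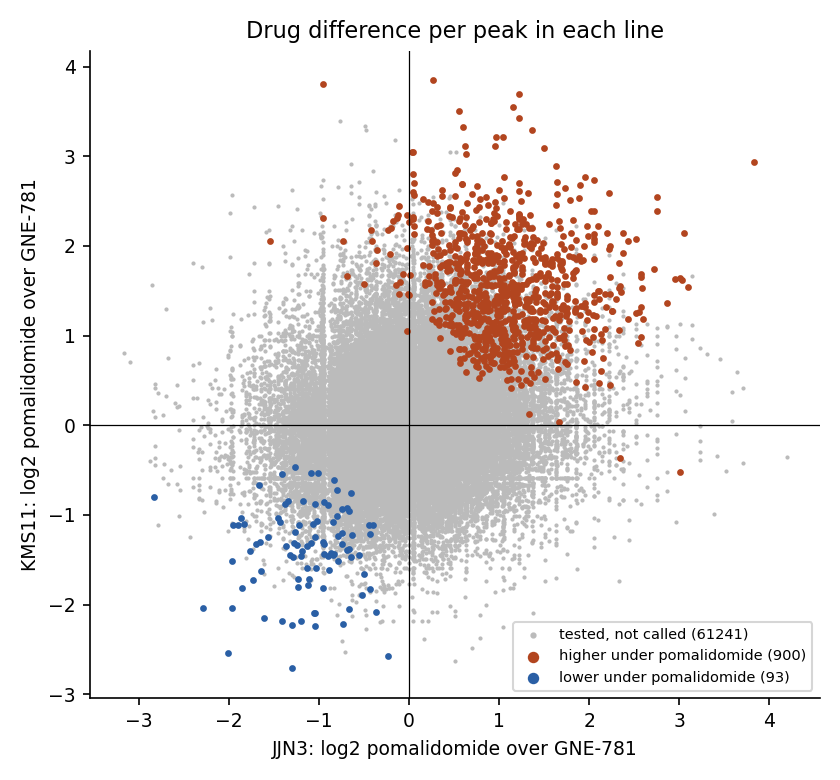
Each point is 1 tested peak, with the log2 ratio of pomalidomide over GNE-781 in JJN3 on the horizontal axis and in KMS11 on the vertical axis. The 900 peaks called higher lie mostly in the upper right, the 93 called lower all in the lower left, and 29 of the higher peaks lie outside the upper right because the lines did not share a sign there.

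The number of calls fell most without a KMS11 library of the contrast. With a library of the contrast left out, the line block rests on the remaining complete pairs. The DMSO and combination libraries then gain weight in the contrast. Without the KMS11 pomalidomide library 103 peaks were higher and 9 lower, and without the KMS11 GNE-781 library 64 and 5, of which 99 and 3, and 59 and 2, were among the calls of the full fit. Leaving out the JJN3 pomalidomide library gave 733 and 47, of which 552 and 27 were calls of the full fit, and leaving out the JJN3 GNE-781 library gave 845 and 90, of which 566 and 50 were. Of the 993 calls, 891 and 932 were lost without the KMS11 libraries and 414 and 377 without the JJN3 ones, in the same order. With the pomalidomide libraries thinned to the GNE-781 totals of the same line, 762 peaks were higher and 75 lower, of which 692 and 49 were calls of the full fit.

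The calls that stood whichever of the 8 libraries was left out numbered 26, and all 26 were higher under pomalidomide. DESeq2's Wald test, which called 126 peaks higher and 3 lower in all, also called these 26. Of the 26 peaks, 15 lay in a gene, 8 between genes and 3 at a promoter, and their differences ranged from 1.12 to 3.79. Both pomalidomide libraries were above both GNE-781 libraries at 24 of them, against 10.2% of all tested peaks. This largely follows from the selection, which used these same libraries. They are named here because of this stability, which was computed after the calls were known. Some left-out fits behind it give weight to the DMSO and combination libraries, so it does not rest on the 4 compared libraries alone. None of the called peaks of the gene lists described further on is among the 26, and of those named DESeq2 called only the peaks of ETS1, PMAIP1 and PHLPP1.

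The lowest unadjusted p belonged to a peak inside ST14, the gene of the membrane serine protease matriptase, at chr11:130178425-130179226, 18863 bp from the annotated start. Its level was 78.3 CPM in JJN3 and 27.7 in KMS11 under pomalidomide, and 23.1 and 3.88 under GNE-781. The groups did not overlap, although the KMS11 pomalidomide library stood only a little above the JJN3 GNE-781 library. The difference was 2.14 ± 0.26 (adjusted p = 3.37e-07).

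The largest difference among the 26 was at chr12:124764819-124765345, a peak between genes whose nearest gene, 98572 bp away, is SCARB1, the receptor for high-density lipoprotein. Under pomalidomide it stood at 26.7 CPM in JJN3 and 14.1 in KMS11, and under GNE-781 at 1.28 and 1.29. Both lines were therefore close to empty under GNE-781 and open under pomalidomide. The difference was 3.79 ± 0.47 (adjusted p = 3.91e-07), from 146 counts against 6.

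A pair of peaks next to the noncoding gene RP13-616I3.1 on chromosome 3 moved together. The one at chr3:197494452-197495410 had 53 and 38.4 CPM under pomalidomide in JJN3 and KMS11, against 12.8 and 8.41 under GNE-781, a difference of 2.11 ± 0.26 (adjusted p = 3.37e-07). The one at chr3:197501632-197502763 had 105 and 72.7 against 37.2 and 27.8, a difference of 1.44 ± 0.2 (adjusted p = 3.54e-06). Summed over both peaks, RP13-616I3.1 had the lowest adjusted p of all gene sums (1.17e-08), with a difference of 1.61 ± 0.16.

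CNIH3, which encodes an auxiliary subunit of AMPA-type glutamate receptors, had a peak at chr1:224502918-224504100 with 89 CPM in JJN3 and 105 in KMS11 under pomalidomide and 32.7 and 38.5 under GNE-781. The ratio was 1.43 in each line, and the fitted difference was 1.46 ± 0.2 (adjusted p = 3.54e-06). Of the 20 peaks assigned to CNIH3, 3 were called higher and none lower, and their median difference was 0.17.

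The 3 promoter peaks among the 26 belonged to PIPOX, HYAL4 and PRCC. At PIPOX, the gene of the peroxisomal enzyme pipecolic acid oxidase, the level was 47 CPM in JJN3 and 70.1 in KMS11 under pomalidomide and 14.1 and 20.4 under GNE-781. The lines had nearly equal ratios, 1.69 for JJN3 and 1.75 for KMS11, with a fitted difference of 1.75 ± 0.24 (adjusted p = 3.54e-06). At HYAL4, a member of the hyaluronidase family, the levels were 48 and 40.3 against 7.69 and 16.5, a difference of 1.75 ± 0.26. At PRCC they were 102 and 49.7 against 45.5 and 23.6, so that the KMS11 pomalidomide library was only just above the JJN3 GNE-781 library, and the difference was 1.12 ± 0.2.

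The other peaks of this group lay in or nearest to DFNB31, DNAH7, SH3RF2, DLGAP1, NTNG1, EPB41L1, KCNS3, LEMD1, CTB-138E5.1, NUAK2, CABLES1, GPR182, RP11-354K1.2, CTIF, TOM1L2, ATXN1, MRPL45 and RN7SKP55. NUAK2 encodes a kinase related to AMPK, and its peak at chr1:205324782-205325594 had 34 and 47.4 CPM under pomalidomide in JJN3 and KMS11, against 8.34 and 18.1 under GNE-781. CABLES1, whose product binds cyclin-dependent kinases, had a peak at chr18:23192096-23192836 with 62.3 and 38.8 CPM against 22.4 and 15.8. In each of these 2 cases the 2 pomalidomide libraries lay above the 2 GNE-781 libraries.

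**Figure D2:**
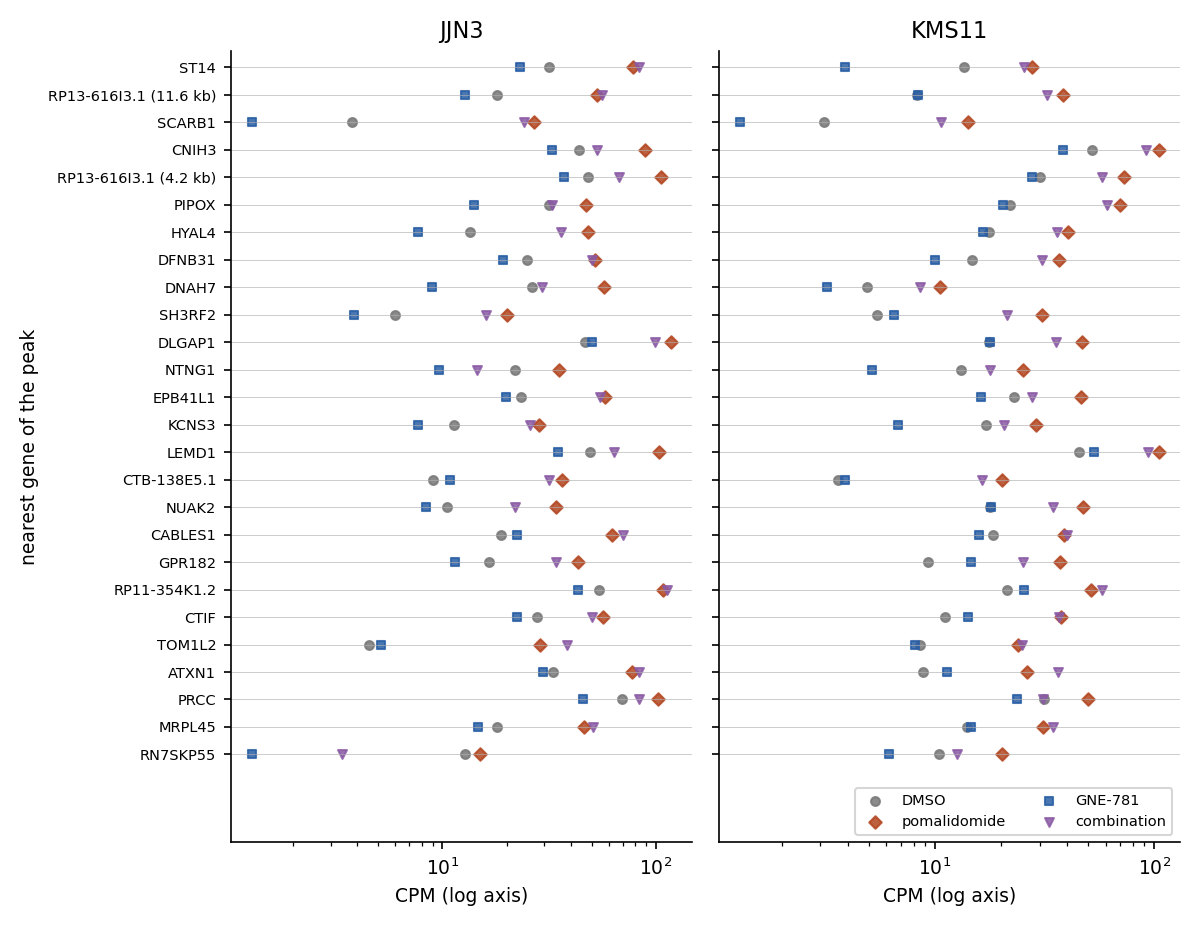
CPM (log axis) of the 26 peaks whose call stood with any 1 library left out, in JJN3 on the left and KMS11 on the right, with 1 symbol per library and the nearest gene as row label. Pomalidomide lies right of GNE-781 in every row of both lines, and the combination lies right of DMSO in both lines at 23 of the 26.

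In the full fit the DMSO and combination libraries have no weight in the contrast, and enter its calls through the shared scaling and estimate of spread. At the 900 higher peaks the median level in JJN3 was 10.5 CPM with DMSO, 20 with pomalidomide, 8.34 with GNE-781 and 18.4 with both drugs, and in KMS11 it was 9.84, 22.6, 7.44 and 17.3. Cells given both drugs thus stood close to those given pomalidomide alone. The combination was above DMSO in both lines at 634 of the 900 peaks (70.4%), against 29.8% of all tested peaks, and below DMSO in both at 76 (8.44%), against 29.3%. The median of combination over DMSO was 0.64 in JJN3 and 0.72 in KMS11, where all tested peaks had 0 in each line. With calls made from the 4 compared libraries alone, 700 higher and 74 lower, the combination was above DMSO in both lines at 72.3% of the higher peaks.

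At the 93 lower peaks the combination stood nearer to DMSO. Their median level in JJN3 was 9.77 CPM with DMSO, 5.67 with pomalidomide, 13.5 with GNE-781 and 8.73 with both drugs, and in KMS11 it was 11.4, 5.79, 17.8 and 9.08. The combination was below DMSO in both lines at 31 of the 93 (33.3%), close to the 29.3% of all tested peaks, and above it at 20 (21.5%). The median of combination over DMSO was -0.01 in JJN3 and -0.18 in KMS11.

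Each drug against DMSO shares the DMSO library of its line with the other, so the 2 changes are set side by side only. At the higher peaks the median of pomalidomide over DMSO was 0.77 in JJN3 and 1.06 in KMS11, and that of GNE-781 over DMSO -0.22 and -0.4. At the lower peaks the medians were -0.51 and -0.75 for pomalidomide and 0.5 and 0.65 for GNE-781. The DMSO level lay between the 2 drugs at 520 of the 900 higher peaks in JJN3 and at 706 in KMS11. It did so at 68 and 76 of the 93 lower peaks, and at 19557 and 22225 of all 62234 tested peaks. The called peaks were chosen for a wide gap between the drugs, which by itself puts DMSO between them more often. The medians against DMSO also reuse the values that chose the peaks. No effect of either drug against solvent is read from them.

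**Figure D3:**
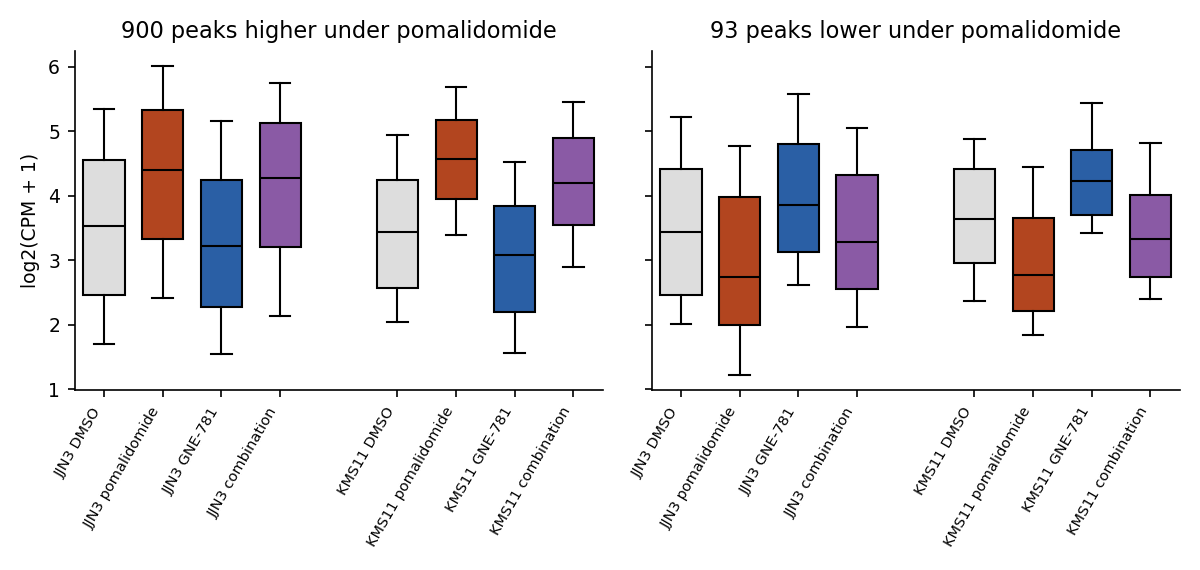
Level in each of the 8 libraries, as log2(CPM + 1), at the 900 peaks higher (left) and the 93 peaks lower (right) under pomalidomide than under GNE-781, with boxes for the quartiles, a line for the median and whiskers from the 10th to the 90th percentile of peaks. At the higher peaks the combination sits near pomalidomide, and at the lower peaks it sits near DMSO.

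Promoters made up 11.1% of the higher calls and 25.6% of the tested peaks. Of 15906 promoter peaks, those within 1000 bp of the annotated start, 100 were higher (0.629%), against 473 of 26767 peaks in a gene (1.77%) and 327 of 19561 intergenic peaks (1.67%). Of the lower calls, 10 were at promoters, 47 in genes and 36 between genes. The share called higher was 0.321% in the 25% of peaks with the lowest mean level and 2.38% in the 25% with the highest. Peaks called higher had a median width of 655.5 bp, against 431 bp over all tested peaks.

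**Figure D4:**
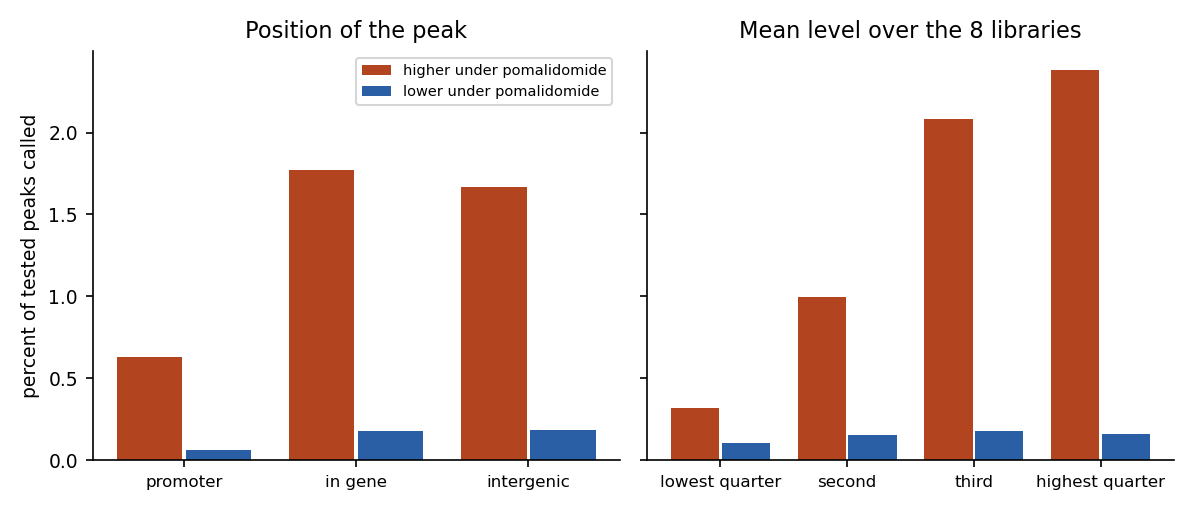
Percent of tested peaks called higher or lower under pomalidomide than under GNE-781, by position of the peak (left) and by rank of the mean level in steps of 25% of the peaks over the 8 libraries (right). Promoter peaks have 0.629% called higher against 1.77% in genes, and the share called higher grows from 0.321% to 2.38% from the lowest to the highest step of level.

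Promoter sequences are shown for genes at which a called peak covered the start. RefSeq windows of 300 bases, 250 before and 50 after a start, were searched on both strands for AP-1 (TGANTCA), IRF (GAAANNGAA), NF-kB (GGANTTTCC), ETS (CCGGAA), IKAROS (TGGGAA) and E-box (CACGTG) letters. A higher peak covered at least 150 bases of 54 windows and a lower peak of 2, and some windows are alternative starts of 1 gene. The IRF letters stood in 9 of the 54 (16.7%), in 6.11% of the 14704 windows that any tested peak covered and in 8.11% of all 35116 windows. The AP-1 letters stood in 7 of the 54 (13%), against 4.33% and 7.71%. The IKAROS letters stood in 20.4%, against 21% and 24%, and the ETS letters in 27.8%, against 30.5% and 17.2%. The NF-kB letters stood in 3.7%, against 1.77% and 1.64%, and the E-box letters in 7.41%, against 10.2% and 7.26%. These are counts of letters, with no test, and they do not show that a factor was bound.

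The 4 promoters below are PIPOX, whose call stood with every library left out, the interferon-inducible genes PLSCR1 and RIGI (DDX58 in the deposited annotation), and IKZF1. The IKZF1 protein is 1 of those that the pomalidomide-bound ligase marks for degradation. KLF9-DT, which starts beside KLF9, is 1 of the 2 windows under a lower peak. All are from RefSeq on GRCh38.p14, written 5′ to 3′ along the gene's own strand, and capitals mark every match to the searched letters. The windows are chr17:29042891-29043190 (plus strand), chr3:146544558-146544857 (minus), chr9:32526147-32526446 (minus), chr7:50308450-50308749 (plus) and chr9:70413940-70414239 (plus).
PIPOX: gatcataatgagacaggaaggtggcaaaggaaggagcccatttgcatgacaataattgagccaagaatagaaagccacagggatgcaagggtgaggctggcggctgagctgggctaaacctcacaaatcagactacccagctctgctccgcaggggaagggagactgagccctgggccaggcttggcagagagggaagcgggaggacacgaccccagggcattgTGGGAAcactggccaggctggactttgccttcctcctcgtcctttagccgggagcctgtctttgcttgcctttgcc
PLSCR1: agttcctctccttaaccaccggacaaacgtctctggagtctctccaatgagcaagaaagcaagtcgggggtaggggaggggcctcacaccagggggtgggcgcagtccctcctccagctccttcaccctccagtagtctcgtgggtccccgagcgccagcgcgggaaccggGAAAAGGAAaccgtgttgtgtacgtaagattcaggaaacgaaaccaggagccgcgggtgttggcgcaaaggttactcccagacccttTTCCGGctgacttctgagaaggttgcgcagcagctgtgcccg
RIGI: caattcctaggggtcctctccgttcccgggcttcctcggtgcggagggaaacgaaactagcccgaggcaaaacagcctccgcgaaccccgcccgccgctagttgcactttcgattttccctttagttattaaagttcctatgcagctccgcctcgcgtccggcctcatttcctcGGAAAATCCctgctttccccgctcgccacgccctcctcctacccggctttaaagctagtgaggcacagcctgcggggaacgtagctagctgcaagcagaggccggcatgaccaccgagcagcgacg
IKZF1: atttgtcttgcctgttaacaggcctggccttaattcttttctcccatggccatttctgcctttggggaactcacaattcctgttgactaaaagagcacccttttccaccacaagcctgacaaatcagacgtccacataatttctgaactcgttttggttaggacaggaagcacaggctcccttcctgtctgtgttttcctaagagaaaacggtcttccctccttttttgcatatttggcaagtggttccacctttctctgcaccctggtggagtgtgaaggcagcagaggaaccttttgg
KLF9-DT: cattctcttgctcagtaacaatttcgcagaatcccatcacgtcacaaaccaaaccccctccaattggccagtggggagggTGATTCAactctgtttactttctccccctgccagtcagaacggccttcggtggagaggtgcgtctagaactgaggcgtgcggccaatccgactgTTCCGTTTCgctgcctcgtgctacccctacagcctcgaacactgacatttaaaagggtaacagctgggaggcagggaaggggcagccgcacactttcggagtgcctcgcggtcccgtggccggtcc

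PIPOX held 1 IKAROS match, PLSCR1 1 IRF and 1 ETS match, RIGI 1 NF-kB match and KLF9-DT 1 AP-1 and 1 IRF match, while the IKZF1 window held none of the searched letters. At PLSCR1, which encodes a phospholipid scramblase, the peak at chr3:146544042-146544976 had 90.6 CPM in JJN3 and 71.2 in KMS11 under pomalidomide and 35.3 and 47.5 under GNE-781, a difference of 0.93 ± 0.19 (adjusted p = 0.00302). At KLF9, a Krüppel-like transcription factor, the peak at chr9:70413743-70414405 had 20.3 and 25.9 CPM under pomalidomide and 26.9 and 56.6 under GNE-781, a difference of -0.84 ± 0.23 (adjusted p = 0.0337). These 2 genes and RIGI were chosen for display after their values were seen.

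Among the genes of the drug targets, 2 of 43 tested peaks of the IKAROS and cereblon ligase list were higher (4.65%) and none lower. For this and every list below, the shares over all tested peaks were 1.45% higher and 0.149% lower. The list's median difference was 0.01, the same as over all tested peaks. At the IKZF1 promoter chr7:50308518-50309086, a start downstream of the first, the level was 44.3 CPM in JJN3 and 11.6 in KMS11 under pomalidomide and 10.9 and 8.41 under GNE-781. The JJN3 pomalidomide library was high and the other 3 were alike, and the difference was 1.28 ± 0.33 (adjusted p = 0.0255). Without the JJN3 pomalidomide library the difference was 0.63 (adjusted p = 0.7), and the call was also lost with total-count scaling, cyclic loess, thinning and DESeq2. The upstream IKZF1 promoter had 38.3 and 18.2 CPM against 32.1 and 18.8, a difference of 0.12 ± 0.24.

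The other called peak of this list was at chr11:61297459-61298184, between genes and 35182 bp from DDB1, the adaptor that joins cereblon to CUL4. It had 12 CPM in JJN3 and 34.9 in KMS11 under pomalidomide and 7.69 and 2.91 under GNE-781. The groups did not overlap, and KMS11 carried most of the difference of 2.36 ± 0.4 (adjusted p = 0.000225). The adjusted p was 0.722 without the KMS11 GNE-781 library.

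Promoters of the other target and plasma cell genes were not called. CRBN, the gene of cereblon, had 30 and 19.7 CPM under pomalidomide in JJN3 and KMS11 and 39.8 and 18.8 under GNE-781, a difference of -0.17 ± 0.24. IKZF3 had a difference of 0.3 ± 0.35, MYC -0.04 ± 0.17, IRF4 0.16 ± 0.2, XBP1 -0.02 ± 0.25, SDC1 0.13 ± 0.19, MAF 0.27 ± 0.18, CCND2 -0.17 ± 0.34 and BATF 0.5 ± 0.33. CREBBP, a target of GNE-781, had promoter differences of 0.2 ± 0.36 and -0.24 ± 0.3, and no peak was assigned to EP300. Of 41 tested peaks of the acetyltransferase and BET list none was called, and the list's median was -0.04. With 1.45% of all tested peaks called higher and 0.149% lower, a list this short may hold no call.

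Distal peaks of plasma cell regulators were called in both directions. Of 216 tested peaks on that list 4 were higher (1.85%) and 2 lower (0.926%), with a median of 0.04. Over all tested peaks 1.45% were higher and 0.149% lower, so the list's higher share was near the general one. The higher peaks belonged to POU2F1, RUNX1, POU2AF1 and PRDM1. POU2F1, an octamer-binding factor, had 40.7 and 34.7 CPM under pomalidomide in JJN3 and KMS11 and 23.1 and 12.3 under GNE-781, a difference of 1.17 ± 0.25 (adjusted p = 0.00349). RUNX1, a haematopoietic factor, had 16 and 13.7 against 5.77 and 2.91, a difference of 1.88 ± 0.4. At an internal peak of PRDM1, which drives plasma cell differentiation, the levels were 31.3 and 28.1 against 15.4 and 15.8, a difference of 0.92 ± 0.26 with an adjusted p of 0.0472 that passed 0.05 under none of the scaling alternatives. Without the KMS11 GNE-781 library the adjusted p was 0.415 at POU2F1, 0.5 at RUNX1 and 0.497 at POU2AF1, and POU2AF1 also lost its call without either JJN3 library, with the 4 compared libraries alone and with total-count scaling.

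The 2 lower peaks of that list were internal to RUNX2 and DEPTOR. RUNX2, a relative of RUNX1, had 7.66 and 2.79 CPM under pomalidomide in JJN3 and KMS11 and 16.7 and 13.9 under GNE-781, so the groups did not overlap, and the difference was -1.69 ± 0.37 (adjusted p = 0.00468). DEPTOR, which inhibits mTOR and is abundant in some myelomas, had 8.33 and 9.65 against 13.5 and 27.8, a difference of -1.23 ± 0.31 (adjusted p = 0.0174). Without the KMS11 GNE-781 library the adjusted p was 0.415 at RUNX2 and 0.854 at DEPTOR. Of 114 tested peaks of the surface and secretion list none was called, and its lowest p was at FCRL5 with a difference of 0.79 ± 0.23 (adjusted p = 0.0608).

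Interferon response genes had 4 of 62 tested peaks higher (6.45%) and none lower, with a median peak difference of 0.14. Over whole genes, 25 of 31 summed values were above 0 with a median of 0.15, where 12298 of 25121 gene sums were above 0 overall with a median of -0.01. The called promoter was that of DDX58, which encodes the RNA sensor RIG-I, with 25.3 CPM in JJN3 and 33.2 in KMS11 under pomalidomide and 14.7 and 14.9 under GNE-781. Both GNE-781 libraries were at the same level and both pomalidomide libraries above them, and the difference was 1.01 ± 0.26 (adjusted p = 0.0195). USP18, which restrains interferon signalling, had 17.3 and 36.9 CPM against 14.1 and 11 (1.18 ± 0.29). A peak near SAMD9L, an antiviral gene, had 45.3 and 6.43 against 12.2 and 2.26 (1.75 ± 0.36), so there the groups overlapped between lines. At DDX58 and USP18 the call was lost without either KMS11 library of the contrast, with adjusted p of 0.665 and 0.903 without the KMS11 GNE-781 library, and at DDX58 also without the JJN3 pomalidomide library. At SAMD9L it was lost without either JJN3 library, with 0.32 when the JJN3 pomalidomide library was left out.

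The adhesion and catenin list, which also holds integrins and chemokine receptors, had the highest share of higher peaks among the lists, 8 of 118 (6.78%) with none of its peaks lower, while its median was 0.03. The genes were chosen for the list with earlier results on CTNND1 known. CTNND1 encodes p120 catenin, which holds cadherins at the cell surface. Its peak at chr11:57778256-57779005 had 14.3 CPM in JJN3 and 28.7 in KMS11 under pomalidomide and 9.62 and 1.94 under GNE-781, a difference of 2.22 ± 0.39 (adjusted p = 0.000322). Its peak at chr11:57792940-57793238 had 12 and 6.86 against 2.56 and 0.97, a difference of 2.48 ± 0.54, from 4 and 3 counts under GNE-781. The groups did not overlap at either peak. At the first the log2 ratio was 3.51 in KMS11 and 0.55 in JJN3, and at the second the lines were closer, at 2.22 and 1.98.

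CDH1, the E-cadherin gene, had 2 internal peaks called. At chr16:68781769-68783069 the levels were 78.6 CPM in JJN3 and 30.2 in KMS11 under pomalidomide and 41 and 13.6 under GNE-781, a difference of 1.03 ± 0.22 (adjusted p = 0.00408), with nearly equal ratios of 0.93 and 1.12 in the lines. The alpha-catenin gene CTNNA1 had a nearby peak with 16.3 and 17.4 against 5.13 and 4.53, a difference of 1.8 ± 0.37, where the lines were alike under each drug. The calls of this peak and of the second CTNND1 peak were lost without either KMS11 library of the contrast. Without the KMS11 pomalidomide library the CTNNA1 difference was 1.37. Peaks of CDH2 (N-cadherin), LEF1 (a partner of beta-catenin) and the promoter of the chemokine receptor gene CXCR3 were the other calls, at 1.1 ± 0.3, 1.38 ± 0.39 and 1.05 ± 0.29, and these 3 calls and that of the second CDH1 peak were lost with total-count scaling. The calls of CDH2 and of the second CDH1 peak were also lost with thinning and cyclic loess, and that of CXCR3 with cyclic loess. Those of CDH2, LEF1 and CXCR3 were lost with the 4 compared libraries alone. At LEF1 the difference lay in KMS11, with 25.3 CPM under pomalidomide and 8.08 under GNE-781, against 3 and 2.56 in JJN3. Without the KMS11 GNE-781 library the LEF1 difference was 0.64. Without the KMS11 GNE-781 library the first CTNND1 peak had an adjusted p of 0.715 and the first CDH1 peak 0.24.

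Of the NF-kB list 3 of 89 peaks were higher (3.37%), with a median of 0.22, and all 3 were internal. TNIP1 and TNFAIP3 encode inhibitors of NF-kB signalling, and NFKB1 encodes a subunit. TNIP1 had 26.3 CPM in JJN3 and 29.2 in KMS11 under pomalidomide and 13.5 and 5.5 under GNE-781, a difference of 1.71 ± 0.32 (adjusted p = 0.000746). TNFAIP3 had 12.3 and 18.4 against 6.41 and 5.82 (1.39 ± 0.36). NFKB1 had 4.33 and 25.1 against 3.21 and 6.79 (1.59 ± 0.39), where JJN3 was low under both drugs and the groups overlapped. Without the KMS11 GNE-781 library the adjusted p was 0.588, 0.798 and 0.974 in that order.

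ETS and IRF factors had 2 of 99 peaks higher (2.02%), near the 1.45% of all tested peaks, again with a list median of 0.22. ETS1, a lymphoid transcription factor, had an internal peak at chr11:128496817-128497792 with 98.3 CPM in JJN3 and 29.2 in KMS11 under pomalidomide and 49.4 and 10.3 under GNE-781. The ratio was 0.98 in JJN3 and 1.44 in KMS11, and the difference was 1.19 ± 0.21 (adjusted p = 0.000414). This call stood in 7 of the 8 left-out fits and was lost without the KMS11 GNE-781 library (adjusted p = 0.115). Summed over its 13 peaks, ETS1 differed by 0.6 ± 0.13 (adjusted p = 0.016). The peak near IRF1, an interferon-induced factor, had 46.7 and 59 CPM against 28.2 and 35.2 (0.75 ± 0.21). Of 58 AP-1 and BATF peaks 1 was called, on the higher side (1.72%, near the 1.45% of all tested peaks). It lay inside BACH2, a repressor of plasma cell fate, with 53.7 and 37.1 against 35.9 and 17.8 (0.82 ± 0.22). The adjusted p was 0.749 at IRF1 and 0.704 at BACH2 without the KMS11 GNE-781 library, and the IRF1 call was also lost with the 4 compared libraries alone, with total-count scaling and with thinning (adjusted p = 0.0571).

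Among genes of apoptosis 3 of 91 peaks were higher (3.3%) and none lower, with a median of 0.09. PMAIP1, the gene of the BH3-only protein NOXA, had a peak 17395 bp away at chr18:59881620-59882553 with 31 CPM in JJN3 and 42 in KMS11 under pomalidomide and 15.4 and 12.3 under GNE-781. The difference was 1.47 ± 0.26 (adjusted p = 0.000354), and DESeq2 called this peak too, although without the KMS11 GNE-781 library the adjusted p was 0.448. CASP8, an initiator caspase, had 6.66 and 12.4 against 1.92 and 2.91 (1.99 ± 0.46). BCL2L1, which encodes the survival protein BCL-XL, had 4.67 and 24.9 against 2.56 and 6.14 (1.76 ± 0.43), with most of the difference in KMS11. Of 90 cell cycle peaks 1 was higher (1.11%, against 1.45% of all tested peaks). It lay inside CDKN1A, the gene of the inhibitor p21, with 53.7 and 34.1 against 29.5 and 17.1 (0.93 ± 0.22). Left-out libraries ended these calls too, with adjusted p of 0.595 at CASP8 and 0.861 at BCL2L1 without the KMS11 GNE-781 library and 0.333 at CDKN1A without the KMS11 pomalidomide library.

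The mTOR and PI3K list had 5 of 143 peaks higher (3.5%) and none lower, around a median of -0.02. A peak 325143 bp from PHLPP1, a phosphatase that acts on AKT, had 138 CPM in JJN3 and 59.8 in KMS11 under pomalidomide and 86.6 and 24.9 under GNE-781, a difference of 0.94 ± 0.19 (adjusted p = 0.00182). Its adjusted p was 0.401 without the KMS11 GNE-781 library. PIK3CG and FOXO3 had differences of 1 ± 0.26 and 1.09 ± 0.28, and with thinning their adjusted p was 0.0593 and 0.0675. The PIK3CG call was lost without any 1 of the 4 libraries of the contrast and the FOXO3 call without either KMS11 one. None of 53 peaks of cytosolic ribosomal protein genes and none of 51 of proteasome genes was called, with medians of 0.02 and -0.08. Lists this short may hold no call at the shares of all tested peaks, 1.45% higher and 0.149% lower.

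Markers of other blood and stromal cells gave 2 calls. Of 37 B cell marker peaks 1 was higher (2.7%, against 1.45% of all tested peaks). It lay inside BANK1, with 3.33 CPM in JJN3 and 36.9 in KMS11 under pomalidomide and 3.85 and 7.11 under GNE-781. Only the KMS11 pomalidomide library was high there. Of 26 T and NK cell peaks 1 was higher (3.85%), at TRAC, with levels of 10.3 and 9.86 CPM against 3.85 and 1.94. Both calls were lost without either KMS11 library of the contrast, with adjusted p of 0.989 and 0.558 without the GNE-781 one. None of the 9 myeloid, 12 erythroid and megakaryocytic or 38 stromal and endothelial peaks was called. Marker genes with a peak numbered 9 of 14 for B cells, 12 of 18 for T and NK cells, 8 of 14 for myeloid cells, 7 of 13 for erythroid and megakaryocytic cells and 12 of 14 for stromal and endothelial cells. The summed level of the myeloid markers was 135.3 CPM in JJN3 and 151.8 in KMS11 under pomalidomide and 103.2 and 135.2 under GNE-781. That of the B cell markers was 363.9 and 576.9 against 377 and 533, that of the T and NK markers 262.9 and 346.9 against 249.4 and 300.4, that of the erythroid and megakaryocytic markers 234.6 and 261.3 against 219.3 and 258.4, and that of the stromal and endothelial markers 452.5 and 534 against 437.3 and 438.5. Their part in the results was not tested.

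**Figure D5:**
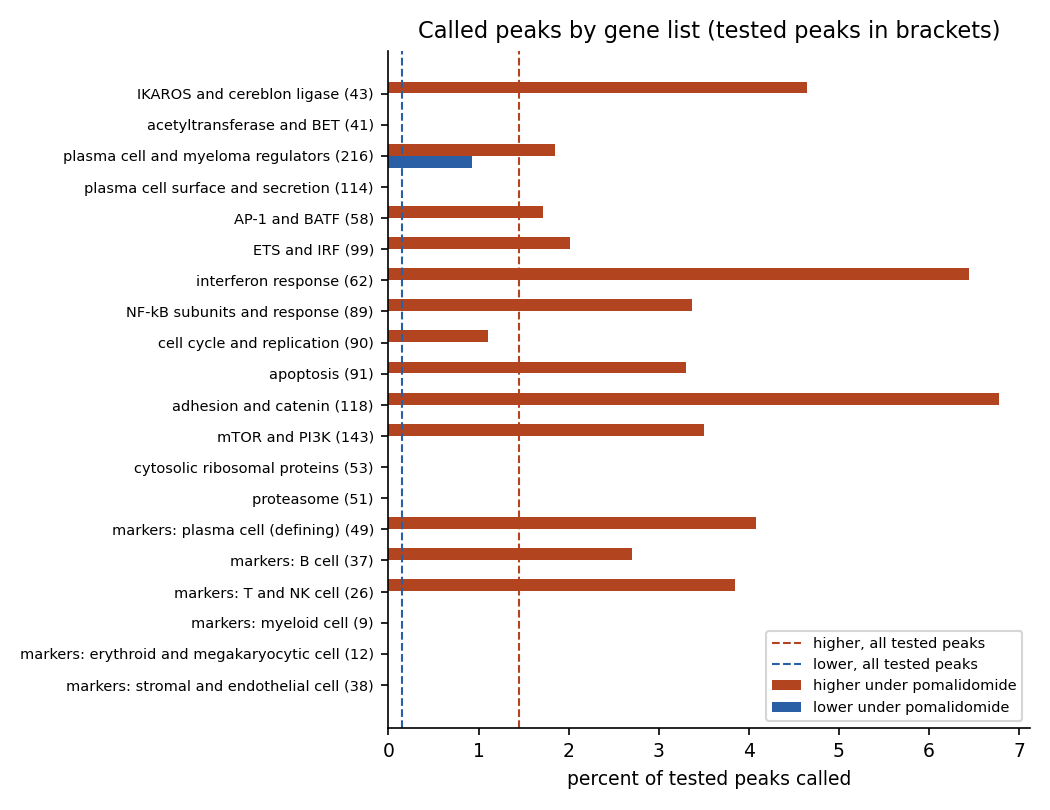
Percent of the tested peaks of each gene list called higher or lower under pomalidomide than under GNE-781, with the number of tested peaks in brackets and dashed lines for all tested peaks (1.45% higher, 0.149% lower). The adhesion and catenin list (6.78%) and the interferon list (6.45%) have the longest bars, from 8 and 4 peaks.

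The 12 largest differences in each direction, among called peaks with the same sign in both lines and at least 40 counts over the 4 libraries, came from sites with few counts under 1 drug, 2 to 13 under GNE-781 on the higher side and 8 to 30 under pomalidomide on the lower. The higher ones were SCARB1 (above), CU459202.1, ZC3H15, EFR3A, PTPRD, KAL1, HECA, RP11-129H15.3, LINC00958, RP11-576N17.6, AP1G1 and ADAM29, from 2.95 ± 0.64 at ADAM29 to 3.82 ± 0.71 at CU459202.1. At CU459202.1 the 2 GNE-781 libraries held 3 counts and the pomalidomide libraries 69. This is a ratio of 14 corrected for depth, with a 95% counting interval of 4.58 to 69.3. It came mostly from KMS11, with 67 counts under pomalidomide and 3 under GNE-781, against 2 and 0 in JJN3. PTPRD was alike, with 49 and 2 counts in KMS11 and 4 and 1 in JJN3. The ratios were 13 (3.4 to 111) at ZC3H15 and 12.1 (3.15 to 104) at EFR3A from 2 counts each under GNE-781. They were 10.7 (3.48 to 53.6) at PTPRD, 9.91 (3.2 to 49.7) at KAL1, 8.9 (2.85 to 44.8) at HECA and 8.7 (2.78 to 43.8) at AP1G1 from 3 counts each. Besides SCARB1, the peak nearest to RP11-576N17.6 rested on the most counts, 168 against 13, and was a KMS11 site, with 1.33 and 35.2 CPM under pomalidomide in JJN3 and KMS11 and 0 and 4.2 under GNE-781. Without the KMS11 pomalidomide library its adjusted p was 0.658, and the other 10 apart from SCARB1 also lost their call without that library.

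On the lower side the 12 were AP000431.1, RP11-43A1.1, AP1S2, CDH11, MYO6, AC073551.1, UNC5D, NEK10, LINC00993, AL391123.1, RP11-269M20.2 and MBNL1, from -2.87 ± 0.63 at AP000431.1 to -1.93 ± 0.4 at MBNL1. LINC00993, a noncoding gene with an internal peak at chr10:37344432-37344815, had the lowest adjusted p of all lower peaks. It stood at 4.67 CPM in JJN3 and 3.43 in KMS11 under pomalidomide and at 13.5 and 17.8 under GNE-781, a difference of -2 ± 0.38 (adjusted p = 0.000926). CDH11, another cadherin gene, had an internal peak with 1.33 and 1.72 against 7.05 and 9.06, a difference of -2.37 ± 0.53 (adjusted p = 0.00565). MYO6, the gene of a myosin that moves towards the minus end of actin, had 1.67 and 2.57 against 7.69 and 10.7 (-2.09 ± 0.49), and MBNL1, a splicing regulator, had 4.33 and 3 against 9.62 and 16.5. In these 4 cases the groups did not overlap. Without the KMS11 GNE-781 library the adjusted p was 0.313 at LINC00993 and 0.387 at CDH11, and all 12 calls were lost without that library.

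Summed over all peaks assigned to a gene, 150 of 25121 gene sums were higher (0.597%) and 15 lower (0.0597%). PIPOX and CTNND1 were among those with the lowest p, at 1.47 ± 0.22 (adjusted p = 0.000306) and 1.49 ± 0.25 (adjusted p = 0.00106), and the sums of CDH1 and PMAIP1 differed by 0.57 ± 0.14 and 0.6 ± 0.15. Among the lower sums, SEMA3E, which encodes a secreted guidance protein, had 79 CPM in JJN3 and 34.9 in KMS11 under pomalidomide over its 6 peaks and 122 and 65.4 under GNE-781, a difference of -0.76 ± 0.16 (adjusted p = 0.0113). RYR3, a calcium release channel, had 14.2 and 20 against 26.8 and 41.3 (-1 ± 0.23), and CD80, a ligand that costimulates T cells, 26 and 20.4 against 34.6 and 45.4 (-0.86 ± 0.22). These 3 were named after their values were seen. The sums of CRBN, IKZF3, MYC, IRF4 and SDC1 differed by -0.25 ± 0.2, 0.14 ± 0.14, -0.15 ± 0.15, 0.09 ± 0.18 and 0.17 ± 0.13. Leaving out the KMS11 GNE-781 library left 4 sums higher and 0 lower.

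Called peaks rarely gathered at 1 gene. They were assigned to 918 genes, of which 853 had 1 called peak, 58 had 2 and 7 had 3 or more. ASAP1, GALNTL6 and NRCAM, named for having the most called peaks, each had 4 higher peaks, out of 37, 27 and 20 assigned to them. Of all tested peaks 1.45% were higher. The median differences over all peaks assigned to these genes were 0.11, 0.22 and 0.33. NRCAM encodes a neuronal adhesion molecule of the immunoglobulin superfamily, and its peaks ranged from -1.08 to 2.25. SH3BP5 had 3 higher peaks of 14 with a median of 0.5. RABGAP1L had 2 higher and 1 lower of 35 with a median of -0.02, and 3 of the 918 genes had called peaks in both directions.

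Whether the difference between the drugs itself differed between the lines was tested in a model with separate drug effects per line, in which the pomalidomide and GNE-781 changes add on the log scale. The difference was more positive in KMS11 at 18 peaks (0.0289%) and more positive in JJN3 at 0 (0%). At an unadjusted p under 0.05 the numbers were 2653 and 1980. At 16 of the 18 the ratio was above 0 in KMS11 and below 0 in JJN3. Inside KALRN, which encodes a guanine nucleotide exchange factor, the level was 36 CPM in KMS11 under pomalidomide and 7.44 under GNE-781, against 8 and 10.9 in JJN3, a line difference of 3.26 ± 0.63 (adjusted p = 0.00962). Inside CCNE2, the cyclin E2 gene, it was 24.2 and 6.79 in KMS11 and 16.3 and 28.9 in JJN3 (2.7 ± 0.51, adjusted p = 0.00779). Without the JJN3 pomalidomide or the JJN3 GNE-781 library 1 peak was called in this test, and without the KMS11 pomalidomide library 3.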

How the data were processed

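The authors deposited 1 table of raw counts, whole numbers per peak and library over 62528 peaks, a union of MACS2 peaks at q 0.01 by the table's own name. Per the submitters' processing notes reads were handled on GRCh38 with Bowtie2 2.3.5.1, MACS2 2.1.1.20160309, SAMtools 1.10, Trim Galore 0.6.4, R 4.1.2 and cutadapt 2.5. Not given in the sources used here are the joining of peaks, the unit counted (read or fragment) and the treatment of duplicates and of the transposase offset. PCR copies are not independent molecules, so counting intervals cover counting error only.

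Samples were grouped by the line and treatment in their labels. The 62234 peaks whose mean CPM was 2 or more were fitted with edgeR 4.0.16 in R 4.3.3 over all 8 libraries, with TMM scaling, 1 effect for each treatment and a block for the line. This leaves 3 residual degrees of freedom, weighed against 62.8 prior ones. Tests were two-sided. The fit was checked on simulated counts. The block pairs libraries of the same cell line, and the deviations of the JJN3 pomalidomide and GNE-781 libraries from the drug means correlated at 0.75 across peaks. Ratios within a line use a prior count of 2 and have no replicate check. No 2 libraries of a line agreed within sampling noise.

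Gene sums add all peaks that the deposited annotation assigns to a gene as the nearest one. Regulation of that gene by the peak was not measured. Named peaks are the 12 largest in each direction among called peaks with the same sign in both lines and at least 40 counts, every called peak of the gene lists (otherwise the 2 of lowest p as values), the promoters of the drug targets and plasma cell genes, and the 5 lowest p of the line test per direction. Peaks that stood in every left-out fit were added after the data were seen. The contrast, lists and members were chosen with earlier results of these data known. Promoter windows are RefSeq's and were searched by a script. DESeq2 1.42.0, other scalings, filters, thinning and left-out libraries were the alternatives. A library left out leaves 1 library for its treatment, which is assumed to vary like the others. Where that treatment is 1 of the 2 compared, the DMSO and combination libraries also gain weight through the line block. Some peaks of the lists are not reported here by name, and the lists' counts include them.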

Additional observations from a re-analysis of the deposited data

Results flagged for a closer look

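The difference between the drugs differed between the lines at 18 peaks by the test of that difference, from 1 to 40 with 1 library left out. Of the 18, 7 were also called in the drug contrast. Shown here are the 5 with the lowest p, the DDB1 peak named above and a peak inside THEM7P. The THEM7P peak was among those of lowest p in the drug contrast. The line difference is KMS11 minus JJN3 on the log2 scale. This line difference was 4.17 ± 0.77 at AC093901.1 (chr2:118302860-118303255), where KMS11 had 9.86 CPM under pomalidomide and 2.91 under GNE-781 and JJN3 1.67 and 16. ATP5F1P4 had 2.3 ± 0.43, with 39.2 and 8.08 CPM in KMS11 and 31.7 and 36.5 in JJN3. CCNE2 had 2.7 ± 0.51 and KALRN 3.26 ± 0.63. RP11-2P2.1 had 3.67 ± 0.7, with 30.9 and 6.47 CPM in KMS11 and 4 and 8.98 in JJN3. The peak near DDB1 had 3.11 ± 0.68, with a ratio of 3.33 in KMS11 and 0.6 in JJN3. Inside THEM7P it was 2.61 ± 0.58, with 52.5 and 5.5 CPM in KMS11 and 16.7 and 8.34 in JJN3. The model has 2 residual degrees of freedom.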

How the results depend on the processing

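Every count of calls kept more peaks on the pomalidomide side in the edgeR fits with the line block. With the line left out (no replicate block) 0 peaks were higher and 0 lower, against 618 and 173 at an unadjusted p under 0.05 in edgeR. DESeq2's Wald test gave 126 and 3, with 2141 and 660 at an unadjusted p under 0.05. It gave an adjusted p to 33276 peaks, and the cause of the lower count was not tested. Leaving out 1 library gave 64 to 990 higher and 5 to 143 lower peaks, 4 to 369 higher and 0 to 42 lower gene sums, and 1 to 40 peaks of the line test, which were 9 with DESeq2's size factors. Sums over promoter peaks alone gave 87 higher and 6 lower, and over distal peaks alone 247 and 23. Of 70 named called peaks, 60 lost their call without the KMS11 GNE-781 library and 56 without the KMS11 pomalidomide library, 16 and 15 without the JJN3 ones, and 0 without either DMSO library. The 4 compared libraries alone, other scalings and filters and thinned counts stayed within 1.5 times of the numbers of higher and lower peaks. The smallest library of the contrast held 1582277 counts, a median of 14 a peak, and the smallest difference that this depth and design can detect was not measured.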
